A study of Homo sapiens with 12 samples.

Results

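Genes that attach or remove ubiquitin and its relatives were picked by symbol from tables of splicing changes in HCT116, a colon cancer cell line of human origin. The rule took symbols that begin with RNF, TRIM, FBXO, FBXW, FBXL, USP, UBE2, UBE3, UBR, HERC, CUL or KLHL and a number, with 1 gene left out. It found 37 of the 1851 gene symbols in the tables. They held 53 of 2365 rows, namely 45 of 1807 intron features and 8 of 558 alternative splicing events. No row carried an FBXW or HERC symbol.

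The cells were an engineered form of HCT116 supplied by Horizon Discovery, either MTAP null (MTAP-null) or MTAP WT (MTAP-WT). MTAP is a phosphorylase of the pathway that salvages methionine from a by-product of polyamine synthesis. Each form received DMSO, the solvent, or AGI24512, which inhibits MAT2A. MAT2A builds the methyl donor S-adenosylmethionine from methionine. Each of these 4 groups, MTAP-null with DMSO, MTAP-null with AGI24512, MTAP-WT with DMSO and MTAP-WT with AGI24512, had 3 libraries of poly-A RNA. The labels state neither dose nor duration, neither how MTAP was removed nor from how many clones the cells came, and do not say whether the 3 libraries of a group are separate cultures. All p-values below therefore measure the spread between these libraries, and that spread may be technical. Summed over the listed features of these ubiquitin genes, a library held 2298 to 4356 reads in MTAP-null and 331 to 722 in MTAP-WT. Of 7 colon epithelium markers chosen to check the label, KRT8 had a row and the other 6 were not analysed, because the tables list only features that passed the authors' test. An MTAP feature was listed in MTAP-null, but without knowing the removed part it does not check the genotype.

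Ubiquitin reaches a protein in 3 steps. An activating enzyme (E1) passes it to a conjugating enzyme (E2, the UBE2 genes), and a ligase (E3) brings the loaded E2 to the substrate. RING ligases (most RNF and TRIM genes) position the E2, HECT ligases (such as UBE3B) take the ubiquitin over first, and cullins (CUL) are scaffolds whose substrate receptors include F-box proteins (FBX genes) and, for one cullin, many Kelch-like proteins (KLHL). Ubiquitin-specific proteases (USP) take the chain off again. A detained intron stays in a polyadenylated transcript that is kept in the nucleus, and the features of the intron tables carry the names of such introns.

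In MTAP-null cells the listed introns of these genes mostly held more reads with AGI24512 and made up more of their gene's signal. In the authors' deposited table, usage is a score fitted per group for a feature's signal relative to its gene. It is not a proportion, and its log2 change is not on the scale of the read count's. The table gave 37 of 39 features, from 31 genes, a higher usage, against 93.5% of all 1549 listed features. The other 2, in the E2 gene UBE2F and the protease gene USP54, had lower usage, against 6.46% of all listed features. The read count, scaled between libraries and tested separately with edgeR, rose at 30 of the 39 (76.9%) where 77.6% of all listed features rose, and fell at 2 where 4.65% fell. The remaining 7 did not pass an adjusted p of 0.05. All 3 AGI24512 libraries lay above all 3 DMSO libraries at 30 features, against 75.9% of all listed features, and below them at 2, against 5.16%. On the log2 scale the read count changed by a median of 0.92 over the 39 and of 0.95 over all listed features. The table holds only features that the authors had called on the same libraries, and these counts describe the listed features and not every intron of the genes.

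The level of these changes depended on the scaling. TMM factors computed on the listed features moved the median log2 change of all of them from 0.95 to 0.11 in MTAP-null and from 0.73 to 0.16 in MTAP-WT. Under them 9 of the 39 MTAP-null features rose, where 16.2% of all listed did, and 7 fell, where 16.3% did. Of the 30 that rose with the authors' size factors, 9 had a log2 change below 0 with TMM factors. Changes are therefore also given relative to the median of all listed features.

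**Figure D1:**
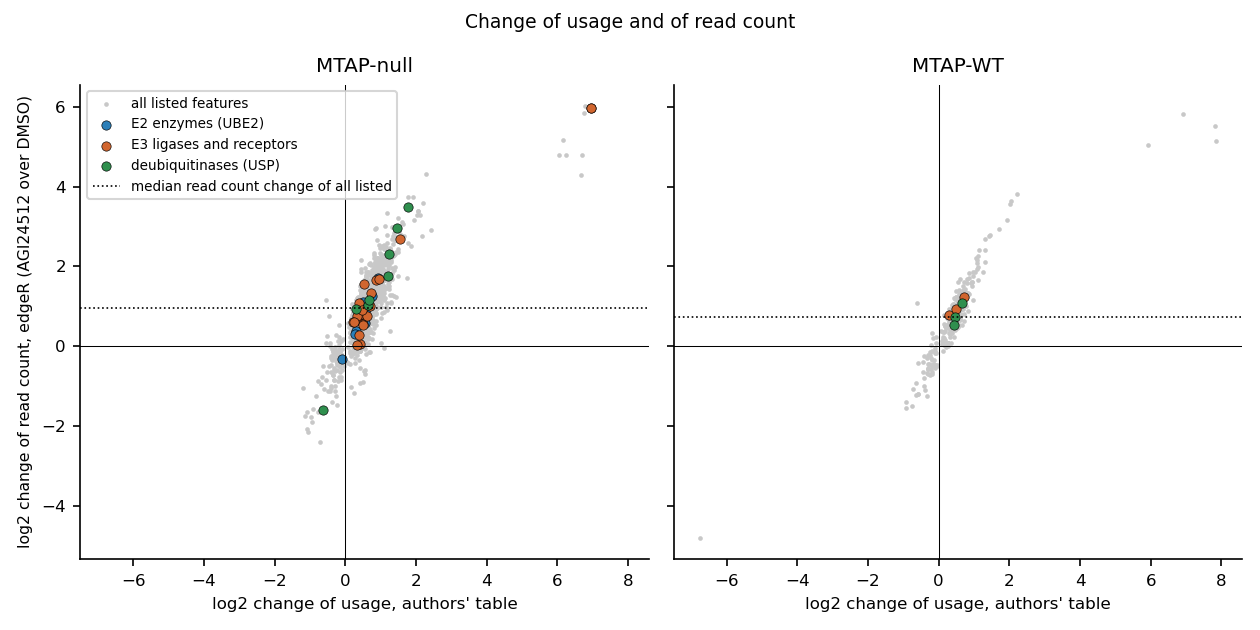
Each point is a listed feature, with the log2 change of usage from the authors' deposited table on the x axis and the log2 change of the read count, AGI24512 over DMSO, on the y axis. Coloured points are ubiquitin genes and the dotted line is the median read count change of all listed features, 0.95 in MTAP-null and 0.73 in MTAP-WT (0.11 and 0.16 with TMM factors). The 2 ubiquitin features of MTAP-null left of 0 are those of UBE2F and USP54.

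**Figure D2:**
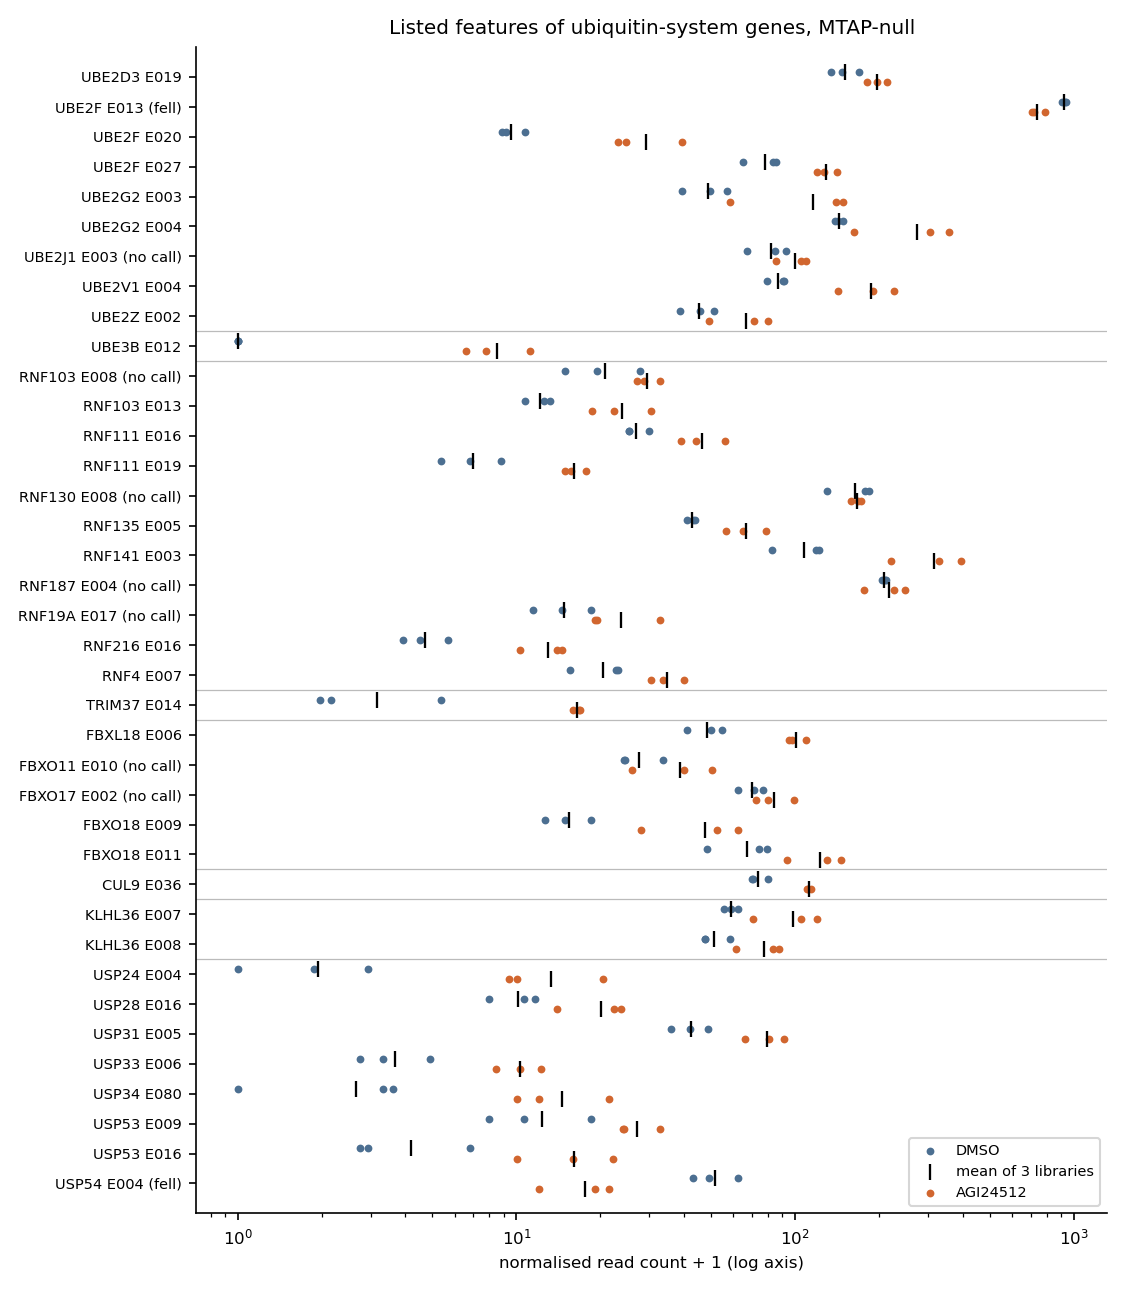
Normalised read count plus 1 (log axis) of 38 of the 39 MTAP-null features, with 3 DMSO libraries, 3 AGI24512 libraries and their means as ticks, grouped by family from E2 enzymes at the top to proteases at the bottom. The 2 features whose AGI24512 libraries lie below DMSO are UBE2F E013 and USP54 E004. With TMM factors 16 of the 37 listed features with a log2 change above 0 turn below 0.

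The E2 enzymes had 9 listed features from 6 genes, of which 7 rose and 1 fell, against 1 and 3 with TMM factors. UBE2F, an E2 for the ubiquitin-like protein NEDD8, which is conjugated to cullins, had 3 of them, and they moved apart. Its feature E013 (GRCh38 chromosome 2, 238041405 to 238042782), which lies inside an annotated UBE2F exon, had the highest count of all the ubiquitin features. Its DMSO libraries held 933, 925 and 907 normalised counts and its AGI24512 libraries 785, 706 and 719. The groups did not overlap, and the count fell to 0.8 of its DMSO level with a log2 change of -0.32 (SE 0.0883, edgeR adjusted p = 0.0044), or -1.27 relative to the median of all listed features. Its usage log2 change in the authors' deposited table was -0.08. In DESeq2 with the authors' factors its adjusted p was 0.049. E013 also lies in the UBE2F-SCLY read-through gene, and reads of the genes could not be told apart. The other features under the UBE2F name, E020 and E027, lie outside UBE2F in SCLY and the UBE2F-SCLY read-through gene. They rose 3.28-fold and 1.67-fold, although the E027 log2 change was -0.08 with TMM factors, and they say nothing about UBE2F on its own. Without them the E2 enzymes had 7 features, of which 5 rose and 1 fell (0 and 3 with TMM factors).

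UBE2V1 and UBE2G2 held the largest changes among the E2 features that lie inside their gene. UBE2V1 is an E2 variant without a catalytic cysteine that works as a partner of another E2. Its feature (chromosome 20, 50084255 to 50095382) held 89.1, 90.3 and 78.0 normalised counts with DMSO and 142, 189 and 226 with AGI24512. That was 2.17-fold, a log2 change of 1.11 (SE 0.191, edgeR adjusted p = 0.000282), and every AGI24512 library was above every DMSO library. With TMM factors the change was 0.25 and not called (edgeR adjusted p = 0.274). The feature is counted under the names of UBE2V1, TMEM189 and their read-through gene, and reads of these could not be told apart.

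UBE2G2, an E2 of the degradation pathway for proteins of the endoplasmic reticulum, had 2 neighbouring introns listed. Both match introns of non-coding UBE2G2 transcripts and not of coding ones, and an annotated exon also lies over E003. Intron E003 (chromosome 21, 44773688 to 44774720) held 55.9, 48.6 and 38.4 normalised counts with DMSO and 57.5, 147 and 139 with AGI24512, a log2 change of 1.25 (SE 0.298, edgeR adjusted p = 0.00202). Intron E004 (44774821 to 44777298) held 148, 138 and 141 with DMSO and 162, 303 and 355 with AGI24512, a log2 change of 0.94 (SE 0.221, edgeR adjusted p = 0.00183). In both, AGI24512 replicate 1 was close to the DMSO libraries and the other two were well above, with no overlap. With TMM factors neither was called, at 0.37 for E003 and 0.06 for E004 (edgeR adjusted p = 0.167 and 0.805). Both introns belong to 1 gene and are not independent.

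The splice sites of the 2 UBE2G2 introns are shown because E003 starts with GC in place of the usual GT. The sequences are from GENCODE 29 transcripts (GRCh38, minus strand), 5′ to 3′, and the capitals mark the first or last 2 bases of the intron.
UBE2G2 E003 intron start, chr21:44774715-44774723: aggGCaagt
UBE2G2 E004 intron start, chr21:44777293-44777301: acaGTaagt
UBE2G2 E003 intron end, chr21:44773685-44773707: gctgcctctgacccttgcAGtct
UBE2G2 E004 intron end, chr21:44774818-44774840: tgatgcttctgtggatgcAGtgt
Of the 7 introns of MTAP-null that lie inside their ubiquitin gene and whose start could be read from an annotated transcript, E003 was the 1 with GC and the other 6 had GT. Among all 466 listed introns with a readable start, 5 had GC (1.07%).

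The remaining E2 genes moved less. UBE2D3, an E2 shared by many RING ligases, had a listed feature of 308 bp that carries an annotated transcript. Its log2 change was 0.39 (SE 0.156, edgeR adjusted p = 0.0315), which turned to a fall of the count at -0.46 with TMM factors. UBE2Z, the E2 that the activating enzyme UBA6 loads, had a log2 change of 0.58 (edgeR adjusted p = 0.0335) with overlapping libraries, -0.27 with TMM factors. Both calls were lost in DESeq2 and without any of several libraries: AGI24512 replicate 2 or 3 for both, DMSO replicate 2 or 3 for UBE2D3 and DMSO replicate 1 or 2 for UBE2Z. UBE2J1, a membrane-bound E2 of the endoplasmic reticulum, had a change of 0.30 (edgeR adjusted p = 0.168). It was called once AGI24512 replicate 1 was left out, and stood at -0.56 with TMM factors.

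RING finger genes were the most numerous, with 11 listed features from 9 RNF genes, of which 7 rose and 4 did not pass (1 rose and 2 fell with TMM factors). RNF141 had the strongest change among the RNF features with a mean of at least 20 normalised counts. Its intron, the 4th of 5 (chromosome 11, 10519142 to 10525191), held 121, 118 and 81.5 normalised counts with DMSO and 219.6, 328 and 393 with AGI24512. That was 2.94-fold, a log2 change of 1.55 (SE 0.209, edgeR adjusted p = 5.48e-05), 0.60 above the median of all listed features, and it also rose with TMM factors. RNF216, a ligase of the RING-between-RING type, rose 3.25-fold from a mean of 3.69 normalised counts. That call was lost with TMM factors, at 0.85 on the log2 scale, and the feature, of 273 bp, carries an annotated transcript.

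RNF111 and RNF103 each had 2 features, and these differed in how firmly they were called. RNF111, also called Arkadia, is a ligase that strengthens TGF-beta signalling. Its neighbouring introns E016 and E019 rose 1.75-fold and 2.53-fold, but E016 lost its call without AGI24512 replicate 3 (edgeR adjusted p = 0.0502) and had a log2 change of -0.05 with TMM factors, where E019 was not called either, at 0.50. RNF103, a ligase of the endoplasmic reticulum membrane, rose 2.04-fold at E013, a call lost without AGI24512 replicate 2 and with TMM factors (log2 change 0.16), while E008, at 0.55 on the log2 scale, missed the threshold (edgeR adjusted p = 0.0922; -0.28 with TMM factors) unless DMSO replicate 3 was left out. Both RNF103 features are counted together with a read-through gene.

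RNF4, which recognises SUMO chains on its substrates, rose 1.73-fold, and RNF135, a ligase of the antiviral sensor RIG-I, rose 1.58-fold. Their log2 changes were -0.04 and -0.18 with TMM factors, and their calls were lost without DMSO replicate 2 for RNF4 and without AGI24512 replicate 3 for RNF135. RNF130, a membrane ligase of the endosome, and RNF19A, another ligase of the RING-between-RING type, had log2 changes of 0.02 and 0.75, neither of them called. RNF130 had overlapping libraries and fell with TMM factors, at -0.82. RNF19A (edgeR adjusted p = 0.0505; -0.09 with TMM factors) had no overlap between its groups and passed without DMSO replicate 3, AGI24512 replicate 1 or AGI24512 replicate 2.

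RNF187, a RING protein that coactivates Jun, was the RNF feature with the highest count, and its read count in MTAP-null was not called with the authors' size factors. The intron is the last of 3 and lies in the 3' UTR (chromosome 1, 228493275 to 228493882). DMSO libraries held 211, 209 and 204 normalised counts and AGI24512 libraries 246, 176 and 225, which overlapped. The log2 change was 0.05 (SE 0.153, edgeR adjusted p = 0.741), -0.90 relative to the median of all listed features, and it fell with TMM factors at -0.77. Its usage change in the authors' deposited table was 0.41, with the smallest adjusted p of the MTAP-null ubiquitin features, 3.19e-09. Usage is relative to the gene, so it can rise while the intron's own count stays level. Of the 39 ubiquitin features of MTAP-null, 7 had higher usage without a call in the read count, against 15.4% of all listed features.

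The listed features of the HECT ligase gene UBE3B and the TRIM ligase gene TRIM37 in MTAP-null were both of low count. UBE3B had 0 reads in all 3 DMSO libraries and 11, 6 and 6 with AGI24512 (chromosome 12, 109490005 to 109490489), over which an exon of an annotated transcript also lies. Against the limit that 0 counts allow, 3 counts over the 3 libraries, it was at least 7.53-fold higher (edgeR adjusted p = 0.000373, and it also rose with TMM factors). This limit covers only the counting error of the DMSO libraries, and the AGI24512 mean is taken as it stands. TRIM37, a RING ligase that restrains centriole formation, held 4.37, 0.971 and 1.16 normalised counts with DMSO and 15.8, 15.9 and 14.9 with AGI24512 at its intron 15 of 24 (chromosome 17, 59047820 to 59049177). Its AGI24512 libraries were nearly alike and 7.16-fold above DMSO, a log2 change of 2.69 (SE 0.484, edgeR adjusted p = 0.000372), which also passed with TMM factors at 1.86.

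Cullin ligases were represented by CUL9, KLHL36 and 4 F-box genes, with 8 listed features, of which 6 rose; with TMM factors 1 rose and 1 fell. FBXO18, also named FBH1, is an F-box protein that is also a DNA helicase, and it had the largest change. Its feature E009 (chromosome 10, 5895188 to 5896812) held 17.5, 11.7 and 14 normalised counts with DMSO and 26.9, 61.2 and 51.3 with AGI24512, 3.23-fold higher and without overlap (log2 change 1.66, SE 0.333, edgeR adjusted p = 0.000717; called with TMM factors too). Its feature E011 (5897471 to 5903019) held 47.2, 72.9 and 78.0 with DMSO and 92.7, 129 and 145 with AGI24512, a log2 change of 0.90 (SE 0.229, edgeR adjusted p = 0.00293), but 0.05 and not called with TMM factors (edgeR adjusted p = 0.871).

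CUL9, an unusual cullin that also has a RING-between-RING domain, rose at its intron 26 of 40 (chromosome 6, 43206511 to 43213148) from 78.6, 69.0 and 69.8 normalised counts to 110.3, 113 and 109. That is a narrow spread in both groups and a 1.53-fold rise, with a log2 change of 0.61 (SE 0.178, edgeR adjusted p = 0.00631), but -0.23 with TMM factors. KLHL36, a Kelch-like protein, had 2 adjoining features. E007 (chromosome 16, 84657945 to 84659096) held 57.7, 61.2 and 54.7 with DMSO and 69.5, 104 and 119 with AGI24512, 1.69-fold higher without overlap (log2 change 0.75, SE 0.221, edgeR adjusted p = 0.00668; -0.11 with TMM factors). E008 rose 1.52-fold, -0.25 with TMM factors, and was no longer called when AGI24512 replicate 2 or 3 or DMSO replicate 1 or 3 was left out. FBXO17 and FBXO11, both F-box proteins, missed the threshold at 0.27 and 0.54 on the log2 scale (edgeR adjusted p = 0.217 and 0.0922). FBXO11 passed without AGI24512 replicate 2. With TMM factors FBXO17 fell at -0.58 and FBXO11 stood at -0.30.

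The deubiquitinases had 8 listed features from 7 USP genes, and all 8 were called: 7 rose and 1 fell, where 77.6% of all listed features rose and 4.65% fell. With TMM factors 3 rose and 1 fell. Their median log2 change was 1.46, against 0.95 for all listed features, but 6 of the 8 had a mean under 20 normalised counts, where the median of all listed features was 1.52. USP54 was the one that fell. Its intron 20 of 22 (chromosome 10, 73504991 to 73505307) held 48.1, 61.2 and 41.9 normalised counts with DMSO and 11.1, 18.1 and 20.5 with AGI24512. Every AGI24512 library was below every DMSO library, at 0.329 of the DMSO mean, and the log2 change was -1.61 (SE 0.286, edgeR adjusted p = 0.000343) and -2.46 with TMM factors. Its usage log2 change in the authors' deposited table was -0.64. The gene PPP3CB-AS1 lies on the other strand there, and as the use of strand in counting is not given in the sources used here, its reads could not be told apart.

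USP31 had the highest count among the proteases, with 41.1, 47.6 and 34.9 normalised counts with DMSO and 64.9, 79.4 and 90.4 with AGI24512 at its intron 13 of 15 (chromosome 16, 23073881 to 23079945). It rose 1.9-fold (log2 change 0.92, SE 0.221, edgeR adjusted p = 0.00214), close to the median of all listed features and without a call with TMM factors, at 0.07. The other proteases that rose had few reads. USP24 had 3 reads over the DMSO libraries and 38 over the AGI24512 libraries, a ratio of 12.7 with an exact 95% counting interval of 4.02 to 64.1. USP34, which acts on axin in Wnt signalling, rose 8.22-fold from a mean of 1.65 normalised counts. USP33 rose 3.52-fold at a feature of 95 bp that carries an annotated transcript. USP28, known for stabilising the MYC protein, rose 2.09-fold. Both lost the call with TMM factors, at 0.94 and 0.18 on the log2 scale, and USP28 also without DMSO replicate 3, AGI24512 replicate 2 or AGI24512 replicate 3.

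USP53 was listed at 2 introns in each genotype, 1 of them in common. In MTAP-null intron E016, the 11th of 18, rose 4.76-fold from a mean of 3.17 normalised counts. Intron E009, the 5th of 18 (chromosome 4, 119239904 to 119245336), held 9.61, 17.5 and 6.98 with DMSO and 23.2, 31.7 and 23.3 with AGI24512 in MTAP-null. In MTAP-WT the same intron held 19.3, 22.8 and 32.3 with DMSO and 41.7, 43.8 and 36.7 with AGI24512. It rose without overlap in both, by 1.16 (SE 0.346, edgeR adjusted p = 0.00713) and by 0.73 (SE 0.244, edgeR adjusted p = 0.00437) on the log2 scale, but was called in neither with TMM factors, at 0.32 and 0.16. The MTAP-WT intron E007 (119235412 to 119239217), in the 5' UTR, held 9.18, 8.31 and 8.33 with DMSO and 19.5, 19.9 and 15.7 with AGI24512, a log2 change of 1.09 (SE 0.362, edgeR adjusted p = 0.00421), or 0.51 and not called with TMM factors.

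MTAP-WT cells had 6 listed features from 5 of these genes, and the authors' deposited table gave all 6 a higher usage, as it did 79.1% of all 258 listed features. The read count rose at all 6, where 70.5% of all listed features rose. These 6 features had every AGI24512 library above every DMSO library, as did 69.4% of all listed features. Their median log2 change was 0.85, against 0.73 for all listed features, and with TMM factors in edgeR 0 rose and 0 fell, also 0 and 0 at an unadjusted p below 0.05, while DESeq2 with the authors' factors called all 6. Of the 5 genes, 4 were also listed in MTAP-null.

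FBXL18, an F-box protein with leucine-rich repeats, rose in both genotypes at its intron 3 of 4 (chromosome 7, 5491450 to 5500487). In MTAP-null it held 48.9, 39.8 and 53.5 normalised counts with DMSO and 96.4, 94.1 and 108 with AGI24512, a log2 change of 1.07 (SE 0.201, edgeR adjusted p = 0.000475). In MTAP-WT it held 52.3, 51.9 and 61.4 with DMSO and 126, 89.7 and 96.5 with AGI24512, a log2 change of 0.92 (SE 0.18, edgeR adjusted p = 4.05e-06). With TMM factors it was called in neither, at 0.23 in MTAP-null and 0.34 in MTAP-WT (edgeR adjusted p = 0.387 and 0.1). FBXO42, an F-box protein with Kelch repeats, was listed in MTAP-WT and not in MTAP-null. Its feature of 403 bp (chromosome 1, 16253153 to 16253555) held 8.26, 5.19 and 7.29 with DMSO and 13.9, 16.9 and 18.9 with AGI24512, a log2 change of 1.23 (SE 0.392, edgeR adjusted p = 0.00289), or 0.66 and not called with TMM factors.

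USP33 was listed in both genotypes at adjoining features of 1 region. The MTAP-WT feature E005 (chromosome 1, 77701472 to 77711651) held 58.7, 88.3 and 79.1 normalised counts with DMSO and 132, 95.7 and 96.5 with AGI24512, a log2 change of 0.53 (SE 0.173, edgeR adjusted p = 0.0035). That call was lost without AGI24512 replicate 1 (edgeR adjusted p = 0.0623), and the log2 change was -0.05 with TMM factors. The MTAP-null feature E006 (77711652 to 77711746) begins at the next base, so the values of the 2 genotypes are not of the same interval.

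The drug effect was compared between genotypes for the 3 ubiquitin introns listed in both, in 1 model over all 12 libraries and the 92 features listed in both tables. The drug-by-genotype term passed at 18.5% of these 92. It passed for RNF187, whose drug effect was lower in MTAP-null by 0.72 on the log2 scale (SE 0.183, edgeR adjusted p = 0.00637), where 8.7% of the 92 passed below 0. In MTAP-WT the RNF187 intron held 184, 192 and 156 normalised counts with DMSO and 337, 289 and 289 with AGI24512. It rose there without overlap, by 0.78 (SE 0.136, edgeR adjusted p = 2.94e-07), against the 0.05 in MTAP-null. Which genotype held the change depended on the scaling. With TMM factors per genotype the RNF187 intron fell in MTAP-null, at -0.77, and was not called in MTAP-WT, at 0.20 (edgeR adjusted p = 4.86e-05 and 0.203). With all libraries scaled together on the shared features, MTAP-null held 257.5, 259.6 and 267 with DMSO and 229, 154 and 193 with AGI24512, without overlap, and MTAP-WT 224, 214 and 183 with DMSO and 247, 247 and 235 with AGI24512. The term kept its call for RNF187 under all alternatives run. For FBXL18 the difference was 0.16 (95% interval -0.34 to 0.65, edgeR adjusted p = 0.736) and for USP53 0.43 (95% interval -0.38 to 1.24, edgeR adjusted p = 0.51), which did not pass.

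**Figure D3:**
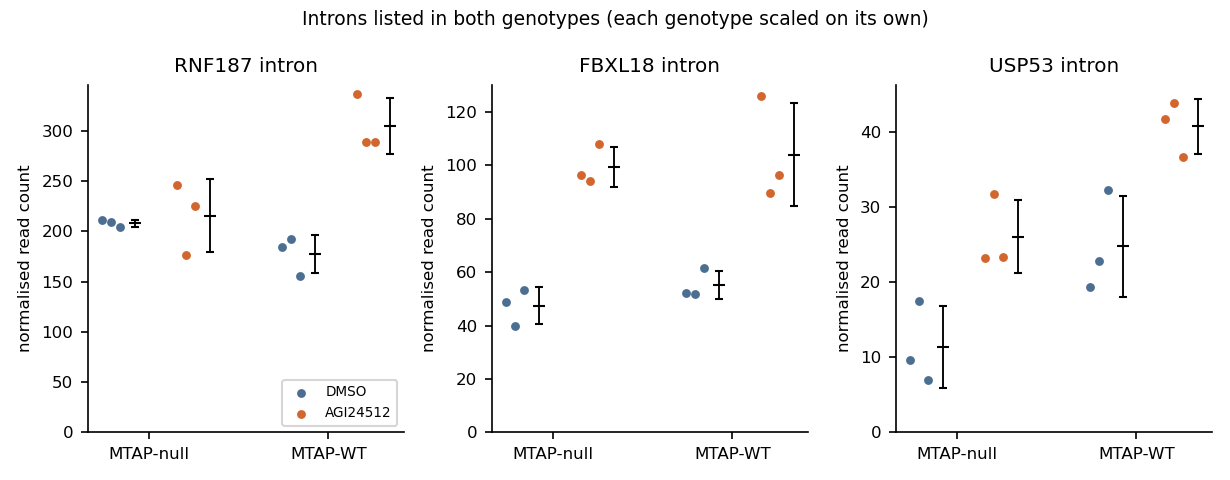
Normalised read counts of the 3 introns listed in both genotypes, 3 libraries a group, with the mean and SD as a bar beside the points. RNF187 overlaps between treatments in MTAP-null and is higher with AGI24512 in MTAP-WT, while FBXL18 and USP53 are higher with AGI24512 in both. The genotypes were scaled separately, so levels are compared within a genotype (with TMM factors the RNF187 change is -0.77 in MTAP-null and 0.20 in MTAP-WT).

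Without the drug, the USP53 intron was lower in MTAP-null than in MTAP-WT. With all libraries scaled together on the shared features, its DMSO level was 14.2 ± 6.64 in MTAP-null and 28.9 ± 7.85 in MTAP-WT (SD, n = 3), a log2 difference of -0.99 (SE 0.313, edgeR adjusted p = 0.0101), where 32.6% of the 92 features differed. The call was lost without MTAP-null DMSO replicate 1 or 3 or MTAP-WT DMSO replicate 3. RNF187 differed by 0.33 (edgeR adjusted p = 0.0662) and FBXL18 by -0.12 (edgeR adjusted p = 0.752), which did not pass, although RNF187 passed without MTAP-WT DMSO replicate 1 or MTAP-WT AGI24512 replicate 1. The tables do not give gene totals, so an intron's level and its gene's RNA could not be separated.

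Alternative splicing events, called by the authors with rMATS, added 5 genes without a listed intron and a second view of UBE2F. An inclusion level is the length-corrected share of an event's reads that include the exon. The headers compare a sample set 1 with a set 2 and do not say which treatment is which, so values are given per set and without a direction for the drug. In each of the 8 events the 3 levels of one set lay apart from those of the other, as in 90.2% of all listed events of MTAP-null and 91.9% of MTAP-WT, which the authors had chosen on these libraries. Of these, 5 had at least 20 reads in every library.

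UBE2F held 3 of the 7 MTAP-null events. Its skipped exons of 30 and 66 bases are both multiples of 3 and lie wholly in the coding sequence of the annotated transcripts. They were measured against the same skipping junction, which joins the exon at 237973092 to 237973225 to the one at 238025342 to 238025412. That junction also passes over an exon of 68 bases (238016566 to 238016633), whose length is not a multiple of 3. The reads across it show neither exon skipped alone, and whether the reading frame is kept was not tested. The 30-base exon had inclusion levels of 0.737, 0.864 and 0.786 in set 1 and 1, 0.985 and 0.977 in set 2 (FDR 1.74e-05 in the authors' deposited table). The 66-base exon had levels of 0.574, 0.666 and 0.66 in set 1 and 1, 0.951 and 0.952 in set 2 (FDR 3.56e-06 in the authors' deposited table). The skipping junction had 17, 5 and 13 reads in set 1 and 0, 1 and 1 in set 2, and since both events use it they are 1 measurement of skipping and not 2. The third event sets the exon of 68 bases against the next exon of 71 bases, which is the far end of that same junction. It has the same upstream exon, so its form with the 71-base exon uses that junction too. The third event is therefore not independent of the other 2. Its levels for the 68-base exon were 0.15, 0.337 and 0.221 in set 1 and 0.753, 0.543 and 0.651 in set 2, on 13 to 27 reads a library (FDR 0.0338 in the authors' deposited table).

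The 4 UBE2F exons are shown because they are the pieces that these events keep or leave out. They are from GENCODE 29 transcripts (GRCh38, plus strand), 5′ to 3′, with no base marked.
UBE2F 30-base exon, chr2:237987963-237987992: aggttgcagaacttgaagctaatttacctt
UBE2F 66-base exon, chr2:237994744-237994809: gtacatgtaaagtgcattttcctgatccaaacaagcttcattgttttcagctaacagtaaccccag
UBE2F 68-base exon, chr2:238016566-238016633: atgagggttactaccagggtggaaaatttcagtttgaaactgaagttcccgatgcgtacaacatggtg
UBE2F 71-base exon, chr2:238025342-238025412: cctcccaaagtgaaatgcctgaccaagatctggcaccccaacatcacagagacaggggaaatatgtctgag
The 68-base and 71-base exons are not multiples of 3, and all 4 exons are wholly coding in the annotated transcripts that hold them.

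RNF14, a ligase of the RING-between-RING type, had the most reads, 382 to 622 a library. Its skipped exon of 152 bases had inclusion levels of 0.712, 0.761 and 0.848 in set 1 and 0.599, 0.619 and 0.532 in set 2 (FDR 0.00929 in the authors' deposited table). The exon is wholly coding in the 8 coding transcripts that hold it, and its length is not a multiple of 3. It is shown for that reason, from GENCODE 29 (GRCh38, plus strand), 5′ to 3′, with no base marked.
RNF14 152-base exon, chr5:141974804-141974955: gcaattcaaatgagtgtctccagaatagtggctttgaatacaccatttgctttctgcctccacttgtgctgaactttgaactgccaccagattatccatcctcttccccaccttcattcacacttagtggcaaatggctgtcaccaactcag

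TRIM7, a TRIM ligase that binds glycogenin, used 2 alternative 5' splice sites 68 bases apart (chromosome 5, 181203477 to 181203544). The longer form had levels of 0.54, 0.626 and 0.534 in set 1 and 0.334, 0.376 and 0.27 in set 2, on 213 to 299 reads (FDR 5.96e-05 in the authors' deposited table). KLHL5, a Kelch-like protein, had a skipped exon of 477 bases (chromosome 4, 39062559 to 39063035) with levels of 0.214, 0.376 and 0.34 in set 1 and 0.524, 0.506 and 0.524 in set 2 (FDR 0.04 in the authors' deposited table). RNF14 and TRIM7 were higher in set 1 and the other 6 events in set 2.

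The remaining 2 events rested on few reads. KLHL7, an adaptor of a cullin ligase, had levels of 0.585 to 0.821 in set 1 and 0.862 to 1 in set 2 at an exon of 131 bases, on 12 to 35 reads (FDR 0.0485 in the authors' deposited table). USP10, a ubiquitin-specific protease, was the 1 event of MTAP-WT. Its exon of 121 bases had levels of 0.158 to 0.433 in set 1 and 0.724 to 1 in set 2, on 8 to 15 reads (FDR 0.0091 in the authors' deposited table).

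**Figure D4:**
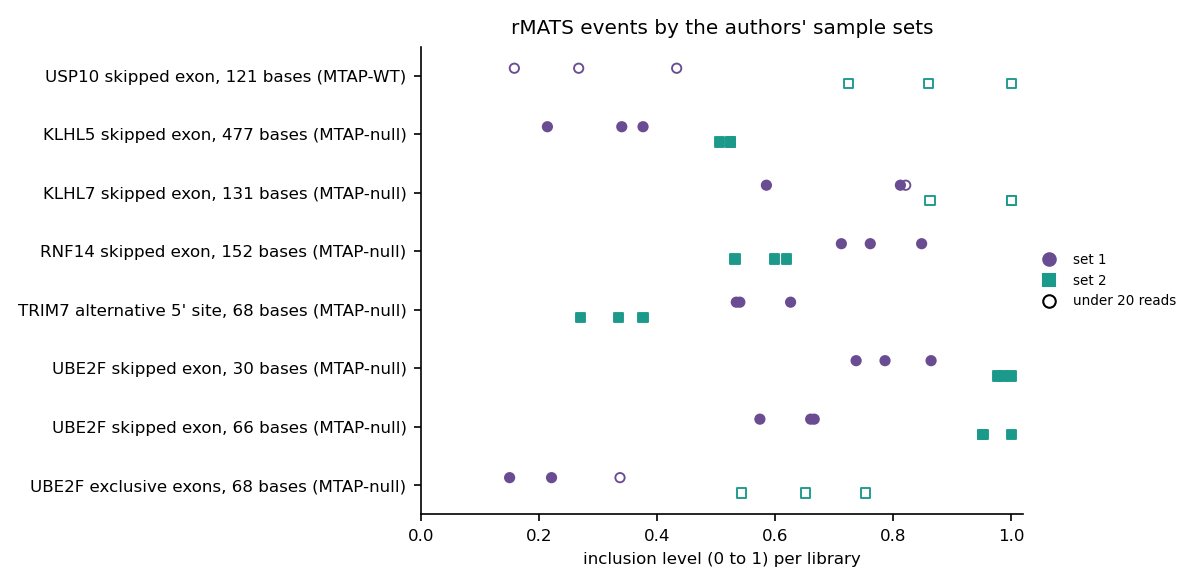
Inclusion level per library (x axis, 0 to 1) of the 8 events, with set 1 as circles and set 2 as squares, open where the library had under 20 reads. In every event the levels of one set lie on one side of the other's. For UBE2F exclusive exons the level is that of the 68-base exon.

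The listed features of these genes resembled the rest of the table in position and size. In MTAP-null 25 of 39 (against 68.9% of all listed) coincided exactly with an annotated intron, and in MTAP-WT 4 of 6 (against 62%). Of these 25, 19 lay within a coding region (78.6% of the exactly matched listed introns). Within the annotated transcript that was matched, 4 were the last intron (15%) and 1 was the first (9.46%). Intron numbers given above are also those of a matched transcript and may differ in others of the gene. The 39 MTAP-null features had a median width of 2316 bp, against 2097 bp for all listed features. In MTAP-null 4 of the 39 carried the name of an annotated transcript, where 10.1% of all listed did. Of the 39, 6 had an annotated exon over them and 7 overlapped a gene on the other strand, so that part of their reads may not be of the intron, which was not tested. The 14 features with a mean under 20 normalised counts had a median log2 change of 1.73 and the other 25 one of 0.66, against 1.52 and 0.82 for all listed features.

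Other genes of the ubiquitin, SUMO and NEDD8 systems were listed from 7 sets of symbols. In MTAP-null 47 of their 385 genes had 54 listed features, of which 44 rose, 4 fell and 6 did not pass, with a median log2 change of 1.05 (5 rose and 6 fell with TMM factors). Of all listed features 77.6% rose and 4.65% fell, with a median of 0.95. All 6 features of cullin adaptors rose, led by PHIP at 3.32-fold, DCAF17 at 3.19-fold and KCTD20 at 2.49-fold. Of these 6, 2 rose with TMM factors and 5 in DESeq2 with the authors' factors. All 5 of the anaphase-promoting complex, the ligase that drives the exit from mitosis, rose, with CDC23 at 2.25-fold, CDC16 at 2.06-fold and ANAPC5 at 2.01-fold (with TMM factors in edgeR 0 rose, also 0 at an unadjusted p below 0.05, and DESeq2 with the authors' factors called all 5). Among 24 features of other ligases 20 rose and 1 fell, with ANKIB1 at 2.93-fold, SHPRH at 2.36-fold and ITCH at 2.24-fold. With TMM factors 1 of the 24 rose and 2 fell, and in DESeq2 with the authors' factors 17 rose and 1 fell.

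The other deubiquitinases had 5 features, of which 4 rose and 1 fell. PSMD14, the protease of the proteasome lid, held both directions, a feature that rose 2.46-fold and one that fell, at -0.33 on the log2 scale (edgeR adjusted p = 0.00477), while FAM188A rose 3.04-fold. With TMM factors in edgeR 0 of the 5 rose and 1 fell, or 3 and 1 at an unadjusted p below 0.05, and DESeq2 with the authors' factors called 4 and 1. Of 8 features of the SUMO and NEDD8 pathways 6 rose and 1 fell, with NAE1, a subunit of the NEDD8-activating enzyme, at 2.46-fold and SENP1, a SUMO protease, at 2.2-fold (with TMM factors in edgeR 0 rose and 1 fell, or 1 and 2 at an unadjusted p below 0.05, and DESeq2 with the authors' factors called 6 and 1). Of 4 features of the proteasome and the p97 cofactors 2 rose, UBXN4 at 2.87-fold and PSMB4 at 2.84-fold, and UBXN2B, at 0.58 on the log2 scale, was not called (2 rose and 1 fell with TMM factors).

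UBA6, an activating enzyme gene, rose 1.97-fold in MTAP-null. In MTAP-WT the sets had 10 features, of which 6 rose and 1 fell (3 and 4 with TMM factors), where 70.5% of all listed features rose and 14.3% fell. RBBP6 rose 2.24-fold, PSMF1 1.62-fold, ERCC8 1.42-fold and CNOT4 1.4-fold, the last 2 with log2 changes of -0.06 and -0.08 with TMM factors, while NEDD8, ATG3 and PSMA1 had 0.09, 0.08 and -0.23 and did not pass.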

How the data were processed

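The members and lists were chosen with earlier results of these data known. The intron tables hold read counts per feature and library that the authors deposited unnormalised. The base mean is a signal that the authors made by dividing counts by size factors, and those factors were recovered from it (0.859 to 1.14 in MTAP-null, 0.953 to 1.09 in MTAP-WT). The usage score per group and the log2 fold of usage are DEXSeq output per the file headers. The fold's sign was turned so that positive is higher with AGI24512. The deposited p-values are adjusted values, and all listed rows are under 0.05. The inclusion levels, a score in the authors' tables, come from rMATS per the file headers. Some read counts there had lost their separators and were rebuilt to match the levels within 0.0011. No source used here names the aligner, the versions or the build.

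In each genotype, counts with AGI24512 were tested against those with DMSO over all listed features of that table, by the quasi-likelihood test of edgeR 4.0.16 in R 4.3.3 with Benjamini-Hochberg adjustment. "Rose" and "fell" mean an adjusted p below 0.05. Alternatives were TMM factors, DESeq2 1.42.0, a mean normalised count of at least 20, replicate number as a block, and each library left out. The steps were tested on simulated counts. Positions and sequences were taken from GENCODE 29 (GRCh38), which 1068 of 1549 and 160 of 258 features match as exact introns. Values in every library are given for features listed in both genotypes, with lower usage, with the highest count of a family, among the 8 largest changes at a mean of at least 20, in MTAP-WT, and for events with 20 reads in each library. For the other gene sets the 3 largest changes at that mean are named. Some genes that these rules name are not reported here by name or value, and counts over groups of features include them.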

Additional observations from a re-analysis of the deposited data

Results flagged for a closer look

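The RNF187 intron was picked out because its drug effect differed between the genotypes by a test of the difference itself. The effect in MTAP-null minus that in MTAP-WT was -0.72 on the log2 scale (edgeR adjusted p = 0.00637), from 0.05 in MTAP-null and 0.78 in MTAP-WT with the authors' size factors, with all 3 AGI24512 libraries above all 3 DMSO libraries in MTAP-WT and overlap in MTAP-null. These per-genotype values depend on the scaling. With TMM factors the intron fell in MTAP-null, at -0.77, and was not called in MTAP-WT, at 0.20 (edgeR adjusted p = 4.86e-05 and 0.203). With all libraries scaled together on the shared features, RNF187 in MTAP-null held 154 to 229 with AGI24512 and 257.5 to 267 with DMSO, without overlap. The difference between genotypes was -0.67 with TMM factors (edgeR adjusted p = 0.0131).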

How the results depend on the processing

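TMM factors moved the counts of ubiquitin features most. In MTAP-null 9 rose and 7 fell with them in place of 30 and 2, and in MTAP-WT 0 rose in place of 6. They lower the listed features about alike by their construction. With them the MTAP-null log2 changes turned to -0.77 for RNF187, -0.82 for RNF130, -0.58 for FBXO17, -0.56 for UBE2J1, -0.46 for UBE2D3, -0.30 for FBXO11, -0.28 for RNF103 E008, -0.27 for UBE2Z, -0.25 and -0.11 for KLHL36 E008 and E007, -0.23 for CUL9, -0.18 for RNF135, -0.09 for RNF19A, -0.08 for UBE2F E027, -0.05 for RNF111 E016 and -0.04 for RNF4, and that of USP33 in MTAP-WT to -0.05. A mean normalised count of at least 20 left 17 MTAP-null features that rose, since fewer were tested. With an adjusted p below 0.01 in the authors' deposited table, higher usage remained at 21 features in MTAP-null and 2 in MTAP-WT. Of the 8 rMATS events, 5 had at least 20 reads in each library.

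Leaving out 1 library at a time gave 24 to 32 MTAP-null features that rose (24 without AGI24512 replicate 3) and 2 that fell, and 5 to 6 MTAP-WT features that rose and 0 that fell. The drug-by-genotype term was called at 1 of the 3 shared introns each time, and the untreated difference at 0 to 2. Of the 30 MTAP-null features that rose, 22 kept the call without each library in turn. RNF130 and RNF187, which were not called, ranged from -0.12 to 0.12 and from -0.05 to 0.18 on the log2 scale, with values below 0 for RNF130 without DMSO replicate 2 (-0.12) or AGI24512 replicate 3 (-0.00) and for RNF187 without AGI24512 replicate 1, and FBXL18 had an untreated difference of 0.00 without MTAP-null DMSO replicate 2.

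Replicate numbers did not pair the libraries. Deviations from the group means correlated at 0.154, 0.0444 and -0.0415 between same-numbered MTAP-null libraries and at -0.271, -0.344 and 0.00306 in MTAP-WT. With the replicate block 31 MTAP-null features rose, RNF19A among them at 0.71 (edgeR adjusted p = 0.0428), and 2 fell, all 6 in MTAP-WT rose and 0 fell, and 1 of the 3 shared introns was called for the drug-by-genotype term and 1 for the untreated difference. Depth limits the features with few reads, and gene totals were not used here.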
